A study of Bubalus bubalis with 6 samples.

Results

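The intergenic circRNAs of buffalo blood were the 2353 entries, of 57308 in the circRNA table, that carry neither the exonic nor the intronic type and name no host gene. They made up 4.11% of the entries, beside 47089 exonic circRNAs, which join exons of a gene, and 7866 intronic ones, which lie within an intron. The type is the annotation of the authors and used no expression value. Each entry is the junction of a circle, given by a chromosome, a start, an end and a strand on the water buffalo assembly ASM312139v1, with its read count in 6 libraries. Sequence names below are those of that assembly, and positions are as deposited.

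A circRNA typically forms when the spliceosome joins a downstream splice donor to an upstream splice acceptor. This closes the RNA into a ring that lacks free ends and resists the exonuclease RNase R. The paper describes intronic circRNAs as lasso-type and derived from introns alone. Most circRNAs are made from exons of protein-coding genes. An intergenic circRNA is one whose junction the annotation assigns to no gene, so it can come from unannotated exons, from long non-coding RNAs, or from transcripts that run beyond or between gene models. Red cells, platelets and leukocytes of mammals all carry circRNAs.

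Blood of Jianghuai buffalo (Bubalus bubalis) cows, 3 to 5 years old, was drawn from the jugular vein. The 3 pregnant cows (P-Buffalo) were synchronised with a prostaglandin analogue, inseminated, sampled on day 25 after insemination and shown to be pregnant by ultrasound on day 60. The 3 non-pregnant cows (C-Buffalo) received the same synchronisation and no insemination, and were sampled on the same day. The groups therefore also differ in insemination itself, and each library came from 1 cow. Counts below are ordered as replicates 1, 2 and 3 of a group.

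The libraries held between 815851 and 1298753 junction reads each over all circRNAs. Non-pregnant replicate 2 stood apart: with 931921 reads it covered 12336 circRNAs, where the other 5 libraries covered 17446 to 26802, and its TMM normalisation factor, which scales libraries to a common composition, was 0.467 against 1.09 to 1.25. Several results that rest on that library are given with and without it. The blood label was checked with the host genes of all circRNAs: 9 of 10 erythroid, 6 of 8 platelet, 5 of 6 T cell and 6 of 6 B cell marker genes had circRNA reads, with summed levels of 1971 to 4144, 1265 to 2567, 2004 to 4105 and 245 to 646 CPM (counts per 1000000 reads of a library, here without the scaling factor). Of 7 monocyte and neutrophil markers 4 had reads, at 3.22 to 44.1 CPM summed, and CD163, CXCR2 and MNDA had none. Of 10 genes of liver, muscle, brain, epithelium and kidney 1 had reads, 3 in all.

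Most intergenic circRNAs were rare and were seen in a single cow. The 2353 members had 173167 reads over the 6 libraries, with a median of 12 reads per member, and 995 of them (42.3%) had fewer than 10. Every member counted in a library had at least 2 reads there. By contrast, the 10 members with the most reads held 33.3% of all intergenic reads. In the libraries 632, 329 and 962 members were read in the non-pregnant cows and 751, 1122 and 581 in the pregnant cows. With the library total scaled by TMM, 3 reads correspond to 2.11 to 2.95 CPM in 5 of the libraries and to 6.90 CPM in non-pregnant replicate 2. A count of 0 may hide an unreported read, so the level it allows can lie above these values, which cover counting error only.

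Few members were read in every cow, but those few held a large part of the intergenic reads. A total of 1452 members (61.7%) were read in 1 library, 386 in 2, 197 in 3, 126 in 4, 94 in 5 and 98 (4.16%) in all 6. The 98 members read in every cow nevertheless held 49.0% of the intergenic reads, with 74 to 24482 reads each. The coefficient of variation of their CPM over the 6 libraries ranged from 20.8% to 205%, with a median of 65.2%. They came from 81 separate places in the genome, and 51 of them did not overlap any circRNA of an annotated gene. In the other classes, circRNAs read in all 6 libraries held more of the reads, 78.9% for exonic and 63.7% for intronic ones. They were 8.82% of exonic and 3.95% of intronic entries, and entries read in 1 library were 54.1% and 69.1%.

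Members seen in a single cow with many reads came almost entirely from the library that stood apart. Of 27 members with 100 reads or more in 1 library and none in the other 5, 25 were in non-pregnant replicate 2, 1 was in non-pregnant replicate 1 and 1 was in pregnant replicate 2. The members read only in non-pregnant replicate 2 had a median of 95 reads, against medians of 7 to 9 for those read only in one of the other libraries. The 5 most read of these single-library members were circRNA19671 with 731 reads in non-pregnant replicate 2, circRNA45364 with 436 in pregnant replicate 2, circRNA14479 with 348 in non-pregnant replicate 1, and circRNA19808 and circRNA19707 with 271 and 268 in non-pregnant replicate 2. The first 3 all lie in the BOLA class I region described below.

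The most read intergenic circRNA of buffalo blood was circRNA14874, a circle of 532 bp at NC_037559.1, 69921592 to 69922123, plus strand. It had 1125, 2124 and 1580 reads in the non-pregnant cows and 12418, 1651 and 5584 in the pregnant cows. In CPM with the library total scaled by TMM, the mean of the pregnant cows was 5597 ± 4491 (SD, n = 3) and that of the non-pregnant cows 2356 ± 2188 (SD, n = 3). Pregnant replicates 1 and 3 were above every non-pregnant library and pregnant replicate 2 was not, so the groups overlapped. The log2 fold change was 1.25 ± 0.86 (SE), with an unadjusted p of 0.182 and an adjusted p of 0.983 by edgeR's quasi-likelihood test with Benjamini-Hochberg adjustment. Without non-pregnant replicate 2 the log2 fold change was 2.33, with an unadjusted p of 0.0323. In bulk blood a change in the number of cells of a type and a change in the RNA per cell cannot be told apart.

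circRNA14874 lies near the lncRNA gene LOC102402027. In the RefSeq gene order of another buffalo assembly, NDDB_SH_1, that lncRNA is separated by 1 gene, itself a lncRNA, from MYC, the proto-oncogene for a transcription factor of cell growth. The nearest hosts outside the place in the table were NSMCE2 and FAM49B. Together with 38 other members whose spans overlap on the same strand it formed the largest cluster of intergenic circRNAs, from 69710824 to 69968930, with 21 different starts and 18 different ends. The 39 members summed to 1351, 2306 and 2019 reads in non-pregnant and 13056, 2390 and 6079 reads in pregnant cows, which was 15.7% of all intergenic reads, and circRNA14874 alone held 90.0% of the sum. Next in the cluster came circRNA14871, with 94, 22, 142, 114, 168 and 124 reads in the 6 libraries, and circRNA19774, with 0, 133, 101, 96, 107 and 106, which shares its end with a circRNA of LOC102402027.

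A set of 3 circles in that cluster, circRNA14874 among them, ends at the same base, 69922123, with spans of 529 to 555 bp. circRNA19776 starts at 69921595 and had 0, 15 and 36 reads in non-pregnant and 139, 48 and 100 in pregnant cows. circRNA38027 starts at 69921569 and had 0 reads in all 3 non-pregnant cows and 14, 19 and 12 in the pregnant ones. Pregnant replicate 2 had the fewest reads of circRNA14874 and of circRNA19776 in the pregnant group. circRNA38027 was nearly level there, at 11.4, 13.4 and 11.8 CPM in the pregnant cows. Its reads were few, and a difference in library ratios between the circles was not tested.

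The member next in mean level, circRNA14538, was a circle of 401 bp at NC_037547.1, 84915915 to 84916315, minus strand, far from any host. The nearest hosts on either side of its cluster were CAAP1, a regulator of apoptosis, and MTAP, an enzyme of methionine salvage. It had 1428, 590 and 1357 reads in non-pregnant and 764, 1605 and 258 in pregnant cows. The pregnant cows averaged 669 ± 440 CPM (SD, n = 3) and the non-pregnant cows 1222 ± 218 CPM (SD, n = 3), and the groups overlapped. It held 90.9% of the reads of a cluster of 14 members.

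**Figure D1:**
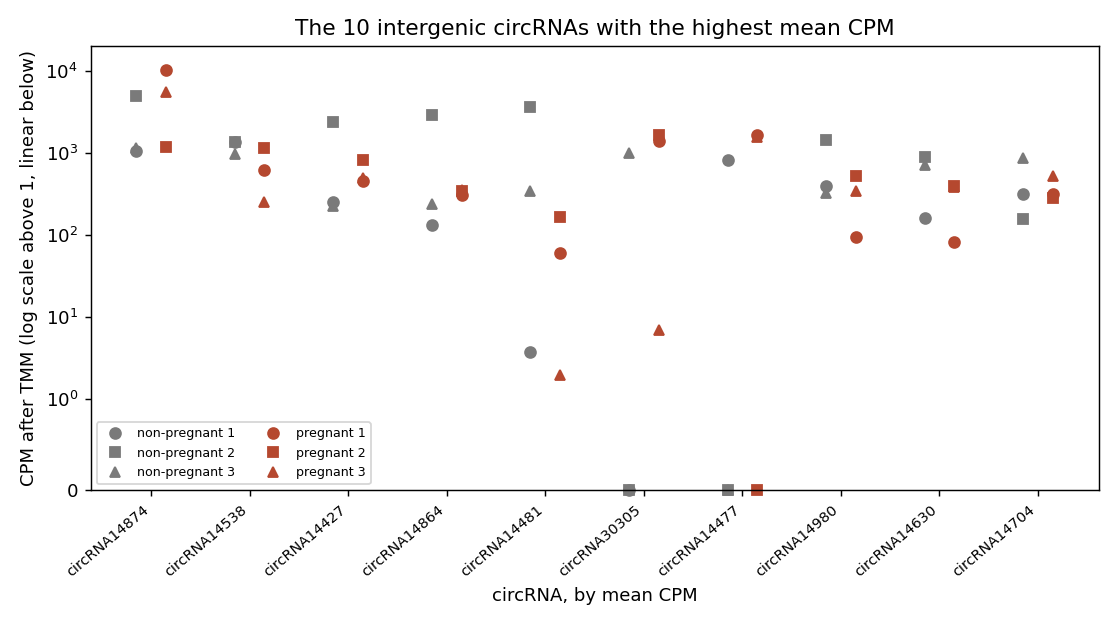
Level of the 10 intergenic circRNAs with the highest mean CPM in each of the 6 libraries, on an axis that is logarithmic above 1 CPM and linear below, with grey symbols for non-pregnant and red symbols for pregnant cows and 1 symbol shape per replicate number. circRNA14874 reached 12418 reads in pregnant replicate 1, while circRNA30305 and circRNA14477 were at 0 in 2 and 3 of the libraries.

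A further 3 of the members with the highest levels overlapped no host gene. circRNA14864, 1635 bp long, lies 11161 bp from the same-strand circRNAs of LY96, the co-receptor with which TLR4 binds lipopolysaccharide, and had 139, 1266 and 333 reads in non-pregnant and 371, 480 and 359 in pregnant cows. circRNA14980 lies 10904 bp from those of EIF4E3, a cap-binding translation initiation factor, and had 423, 626 and 455 against 116, 734 and 345 reads. circRNA14630, a circle of 330 bp between host genes that code for a SLAM family receptor and an uncharacterised protein, lies 78980 bp from the nearest host on its strand and had 171, 388 and 1006 against 99, 561 and 387 reads. All 3 had overlapping groups, and for circRNA14864 the pregnant cows varied little (331 ± 25.5 CPM, SD, n = 3) while non-pregnant replicate 2 was highest. The log2 fold change of circRNA14864 was -1.72, and 0.81 without that library.

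Clusters were common. Members whose spans overlapped on the same strand fell into 1285 loci, of which 887 had 1 member and 17 had 10 or more, and 1223 members shared an exact start or end with another member. After the cluster at LOC102402027 the most populous was at EIF4E3 and FOXP1, the latter a transcription factor of lymphocytes, at NC_037565.1, 29854983 to 30047762, plus strand. Its 28 members used 8 starts and 14 ends and summed to 1069, 895 and 1231 reads in non-pregnant and 392, 1701 and 920 in pregnant cows. Many of them begin at 1 base, 29854983: circRNA14980, circRNA14979 with 152, 235, 210, 59, 328 and 106 reads in the 6 libraries, and circRNA14978 with 58, 2, 74, 0, 73 and 17 all start there.

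A cluster of 22 members lay between ENTPD4, an apyrase of the Golgi and lysosomes, and SLC25A37, the mitochondrial iron importer (mitoferrin-1) of red cell precursors, at NC_037547.1, 133198108 to 133257710, minus strand. None of the 22 overlapped the circRNAs of a same-strand host gene, and none was read in all 6 libraries. The NDDB_SH_1 order has 1 gene between the 2, the lncRNA LOC123332894. The reads summed to 84, 452 and 191 in non-pregnant and 97, 430 and 88 in pregnant cows. They moved between junctions from cow to cow: circRNA19690 had 219 reads in non-pregnant replicate 2 and 0 elsewhere, and circRNA19693 had 0, 8 and 61 against 0, 99 and 56.

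The remaining populous loci were a set of 15 members at LOC102399397 and LOC112586663 on NC_037552.1, led by circRNA14671 with 25, 129, 544, 82, 61 and 44 reads, and a set of 15 at the multidrug resistance-associated protein 4-like gene LOC102405871 on NC_037557.1. By reads, the fifth was the locus of 4 members at ADAM32, which belongs to the family of membrane proteins with a disintegrin and a metalloprotease domain. circRNA14427 held 94.7% of its reads, with 271, 1034 and 316 in non-pregnant and 549, 1170 and 505 in pregnant cows. Relative to all circRNAs this member was fitted at a log2 fold change of -0.69, and at 1.28 without non-pregnant replicate 2 (unadjusted p of 0.0303), so its direction turned on that library.

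Antigen presentation supplied the second most read locus. MHC class I molecules present peptides to T cells, and in cattle and buffalo they are coded by several similar genes, named BOLA. On NC_037546.1, plus strand, 25 intergenic circRNAs lay between 24315156 and 24502060, and all of them overlapped the host circRNAs of LOC102390435 or LOC102402481, which are annotated as BOLA class I alpha chains of the BL3-6 kind. They summed to 1243, 2723 and 1923 reads in non-pregnant and 4246, 3166 and 4094 in pregnant cows, 10.05% of all intergenic reads. The log2 fold change of the sum was 0.59 ± 0.50 (SE, unadjusted p of 0.256 by edgeR's quasi-likelihood test, adjusted p of 0.985). Sums were scaled by TMM factors computed over loci and host genes, where non-pregnant replicate 2 had a factor of 0.688. On that scale it reached 4249 CPM, within the pregnant range of 2346 to 4440, while the other non-pregnant cows were at 1273 and 1484. With the factors of single circRNAs it reached 6259 CPM, above the highest pregnant cow at 4022, so its place in the order depended on the scaling. The log2 fold change was 1.35 (unadjusted p of 0.00948) without that library and 0.27 to 0.78 when any other library was left out. The host entries were far less read: the 7 circRNAs assigned to LOC102390435 had 653 reads in all libraries together and the 2 of LOC102402481 had 10.

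Within the class I locus the leading junction differed between cows, with 3 junctions leading in 1 to 3 cows each. circRNA14477 (24315622 to 24476231) led in non-pregnant replicate 1 and pregnant replicates 1 and 3, with 860, 2027 and 1587 reads, and was at 0 in the other 3 libraries. circRNA30305 (24316787 to 24476704) led in non-pregnant replicate 3 and pregnant replicate 2, with 1403 and 2318 reads, and also had 1707 in pregnant replicate 1, 7 in pregnant replicate 3 and 0 in non-pregnant replicates 1 and 2. circRNA14481 (24357208 to 24476704) led in non-pregnant replicate 2 with 1555 reads, against 4, 473, 74, 233 and 2 in the rest. circRNA30311 had 1398 reads in pregnant replicate 3, 2 in non-pregnant replicate 3 and 0 elsewhere, and circRNA14478 had 1053 in pregnant replicate 3, 31 in pregnant replicate 1, 11 in non-pregnant replicate 1 and 0 elsewhere.

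The coefficient of variation of CPM over the 6 libraries was 113% to 245% for the 8 most read members. The 25 members combined 13 starts with 18 ends, and 6 of them began at 24357208. In each library 7 to 11 of the 25 were read, and the leading one held 38.8% to 73.2% of the reads. The spans had a median of 120233 bp. In the NDDB_SH_1 order, LOC102402481 and LOC102390435 lie among 14 genes between TRIM26 and PRR3. Reads from class I genes, which resemble one another, can be placed at more than 1 of them, so the counts of single junctions here are uncertain. The part of read placement and of allelic differences between cows was not tested.

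**Figure D2:**
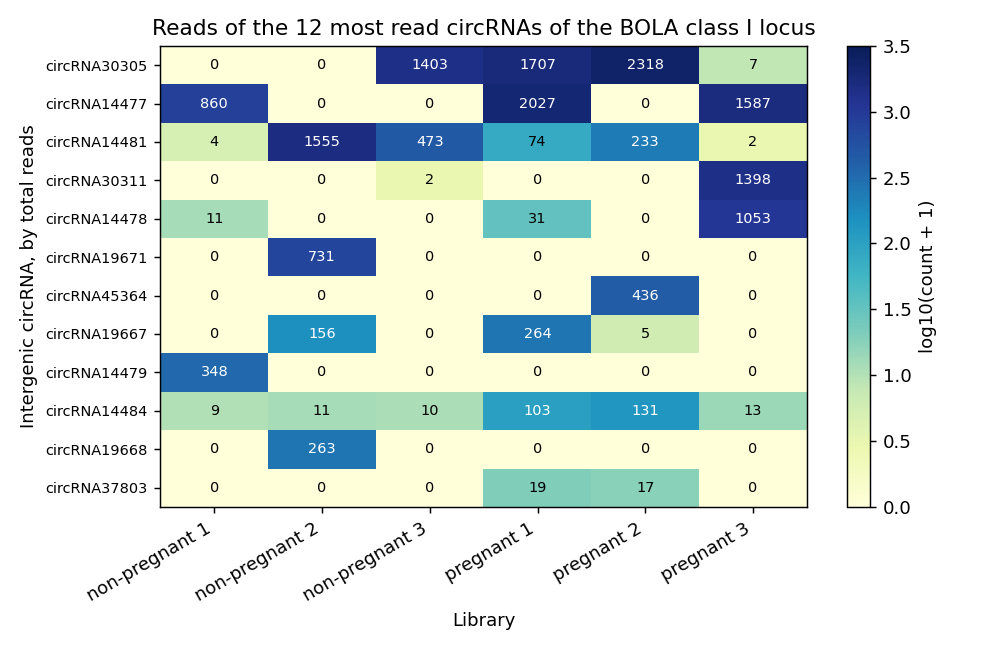
Read counts of the 12 most read intergenic circRNAs of the BOLA class I locus (rows) in the 6 libraries (columns), with darker cells for higher log10(count + 1) and the count printed in each cell. The leading circRNA changes between cows, from circRNA14477 (860 reads in non-pregnant replicate 1) to circRNA14481 (1555 in non-pregnant replicate 2) and circRNA30305 (2318 in pregnant replicate 2).

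Although these circRNAs have no host gene in the table, many of them touched one. The circRNAs of each host gene were joined into a span from their first start to their last end, which is a minimum extent of the gene and not its annotated model. A total of 1172 members (49.8%) overlapped such a span on the same strand and 53 overlapped one on the opposite strand, and 617 lay wholly inside a same-strand span. An exact start or end was shared with a host-gene circRNA of the same strand by 787 members (33.4%) and with one of the opposite strand by 0. The 1170 members without any overlap held 56.1% of the reads, and their nearest same-strand host lay at a median distance of 77243 bp, within 10 kb for 145 of them.

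The members with shared ends were longer than those without overlap. Median spans were 19056 bp for the 71 members that shared both ends, 14304 bp for the 716 that shared 1 end, 11725 bp for the 385 that overlapped without a shared end and 4412 bp for the 1170 without overlap. Reads in 1 library only were the case for 46.5%, 61.0%, 64.9% and 61.8% of these groups. A longer span meets a host span more readily, so the groups are not independent of length. These are descriptions with no test.

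**Figure D3:**
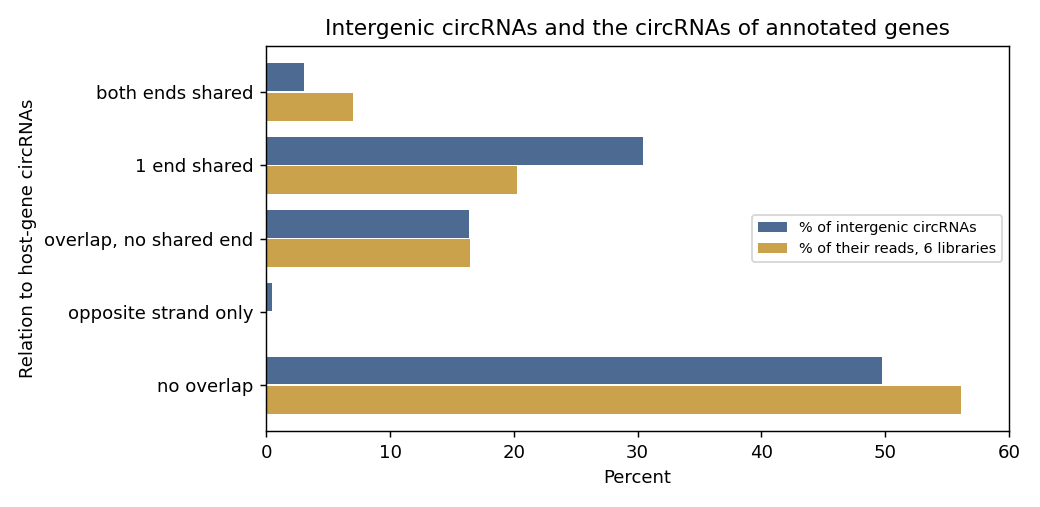
Percent of the 2353 intergenic circRNAs (blue) and of their 173167 reads (yellow) in each relation to the circRNAs of annotated genes, by exact ends and by overlap of spans. Members without overlap made up 49.7% of the circRNAs and 56.1% of the reads.

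Of the 71 members with both ends shared, 48 took both from 1 gene and 23 took them from 2 different genes. Besides circRNA14427 of ADAM32, the first kind included circRNA14756 of ZNF609, a zinc finger gene, with 111, 0 and 155 reads in non-pregnant and 341, 146 and 132 in pregnant cows. It also included circRNA14997 of LOC102395913, with 26, 207 and 86 against 262, 118 and 0 reads. Among members with 1 shared end, circRNA14720 ended with AKIRIN2, a nuclear factor of proteasome import, and had 66, 384 and 367 against 467, 172 and 209 reads. circRNA14728 ended with CDK19, a kinase of the Mediator complex, and had 296, 133 and 95 against 327, 247 and 142. All of these have overlapping groups.

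The 23 members that joined different genes were led by 1 pair of paralogs. circRNA14704, 84203 bp long on NC_037553.1, starts with circRNAs of LOC102404615 and ends with those of LOC102407985, which are annotated as adhesion G protein-coupled receptors of the E4P and E3 kinds, a family of myeloid surface receptors. It had 335, 68 and 1195 reads in non-pregnant and 382, 400 and 526 in pregnant cows, was read in every cow, and was followed among the 23 by members with 62 reads or fewer. The next, circRNA45604 with 0, 0 and 0 against 0, 27 and 35 reads, and circRNA14792 with 18, 0 and 39 against 0, 0 and 0, each joined 2 multidrug resistance-associated protein 4-like genes. circRNA14792 spans 186970 bp and was the longest member with at least 50 reads, and the shortest was circRNA14929 with 140 bp and 47, 0, 12, 0, 22 and 0 reads.

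The multidrug resistance-associated protein 4-like genes, relatives of the transporter that exports cyclic nucleotides and prostaglandins, were overlapped by many members, and 1 of them, LOC102405871, by 39, the most of any host gene. The table has 48 such host genes, and 80 members, all on NC_037557.1, overlapped 13 of them. These 80 had 547, 227 and 328 reads in non-pregnant and 298, 702 and 382 in pregnant cows, and 55 of them were read in 1 library and 1 in all 6. NC_037557.1 was also the assembled chromosome with the largest share of intergenic entries, 7.29% of its circRNAs, against 1.93% on NC_037558.1, the lowest. Because these genes are similar copies, the assignment of their junctions is uncertain.

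Other genes overlapped by many members were EIF4E3 (18 members), the phosphodiesterase gene PDE4D (16), CDK19 (15), the glycosyltransferase genes B4GALT6 and MGAT5 (14 each), the deadenylase gene PAN3 (14), the erythroid transcription factor gene SOX6 (12) and the ubiquitin ligase gene FBXW7 (11). In all, 529 host genes were overlapped, and at 98 of them the overlapping members had more reads than the gene's own circRNAs. At PAN3 the 14 members had 580 reads and the 52 host circRNAs 22601. At LOC102404615 the 7 members had 3002 reads and the 13 host circRNAs 236.

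A comparison of ends showed a 1-base offset that concerns the class as a whole. Of the members, 313 started exactly at the start of an exonic circRNA, 141 started exactly 1 bp before one, and 0 started 1 bp after one. For the ends 417 matched an exonic end exactly, with 0 at 1 bp to either side. The exonic entries themselves held both forms, with 4439 of their 33067 distinct starts followed by another start 1 bp later, whereas no member start lay 1 bp from another member start. With a start 1 bp earlier counted as shared, 818 members (34.8%) shared an end with a host-gene circRNA and 87 shared both.

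Some intergenic entries lay at the very junction of an exonic entry. A total of 24 members (1.02%) had both ends within 1 bp of an exonic circRNA on the same strand, and 7 of these had identical coordinates, among them those at MGAT4A, CEP70 and ABCC1. In the 100 cases in which a library read either entry of a pair, it read both in 0. circRNA14786 of DTNB, for instance, had 130, 0 and 0 reads in non-pregnant and 72, 0 and 0 in pregnant cows, while its exonic partner circRNA20119 had 0, 8 and 120 against 0, 243 and 91. circRNA37941 had 93 reads in pregnant replicate 1 only, and its partner circRNA12560 of GRAMD2B had 23, 196 and 78 against 0, 56 and 64.

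The same held for the other pairs with many reads. circRNA14690 had 67, 13 and 183 against 38, 51 and 0 reads, and its partner circRNA48829 of LOC102391549 had 25 reads in pregnant replicate 3 and 0 elsewhere. circRNA14888 of FAR1, a fatty acyl-CoA reductase gene, had 30, 0 and 0 against 0, 0 and 13 reads, and its partner circRNA28895 had 0, 0 and 16 against 51, 38 and 0. For these 24 junctions a count of 0 in one entry stood beside reads in the other, so their presence in a cow can be read only from the pair. What set the class of a junction in a given library was not tested.

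In every library the median intergenic circRNA spanned more of the genome than the median circRNA of the other classes. None of the 7 main exact tests of classes and groups passed 0.05 after Benjamini-Hochberg adjustment. Exact p-values of other settings are given without adjustment. The median span of the members read in a library was 5859, 6309 and 8432 bp in non-pregnant and 8105, 7118 and 8068 bp in pregnant cows. For exonic circRNAs it was 4236 to 5846 bp and for intronic circRNAs 1718 to 2778 bp. The intergenic median was higher in 6 of 6 libraries in both comparisons, on average 1.42-fold above exonic and 3.34-fold above intronic. Each comparison reached the smallest p that an exact paired permutation test over 6 libraries can give (two-sided p = 0.031, adjusted p = 0.0729 over the 7 main tests). Over the whole table, 11.5% of intergenic, 3.92% of exonic and 4.14% of intronic circRNAs spanned more than 50 kb.

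In every library a larger share of the intergenic than of the intronic circRNAs was also read in another cow. Of the members read in a library, 68.8%, 83.9% and 62.5% in non-pregnant and 66.3%, 59.6% and 76.8% in pregnant cows were also read in another library. The intronic shares were 53.7% to 69.5%, lower in 6 of 6 libraries by 8.77 percentage points on average (exact paired permutation test, two-sided p = 0.031, adjusted p = 0.0729). Intergenic entries had at least 2 reads wherever they were counted, while some intronic and exonic entries had fewer. With counts of 5 or more the difference from intronic circRNAs was 2.06 points (exact p = 0.25), so it did not hold for better-read entries. Among entries with 2 to 4 reads in a library, where the classes share a lowest count, it was 8.59 points (exact p = 0.031). The exonic shares were 70.6% to 83.5%, higher in 5 of 6 libraries by 6.73 points on average (exact p = 0.0625, adjusted p = 0.109), with non-pregnant replicate 2 as the exception, and with counts of 5 or more higher by 11.3 points (exact p = 0.031).

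The level per circRNA did not separate the classes clearly. The mean count per member read was 34.8, 80.2 and 30.9 in non-pregnant and 48.7, 29.8 and 43.0 in pregnant cows. For exonic circRNAs it was 47.0 to 78.0, higher in 5 of 6 libraries (exact paired permutation p = 0.0938, adjusted p = 0.131). For intronic circRNAs it was 28.0 to 53.3, lower in 4 of 6 (exact p = 0.125, adjusted p = 0.146). The direction against exonic circRNAs depended on the measure: the median count was higher for intergenic circRNAs, by 0.34 on the log2 scale on average (exact p = 0.031). Intergenic entries had at least 2 reads wherever they were counted, while some exonic and intronic entries had fewer. Mean and median counts therefore compare classes with unlike lowest counts.

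**Figure D4:**
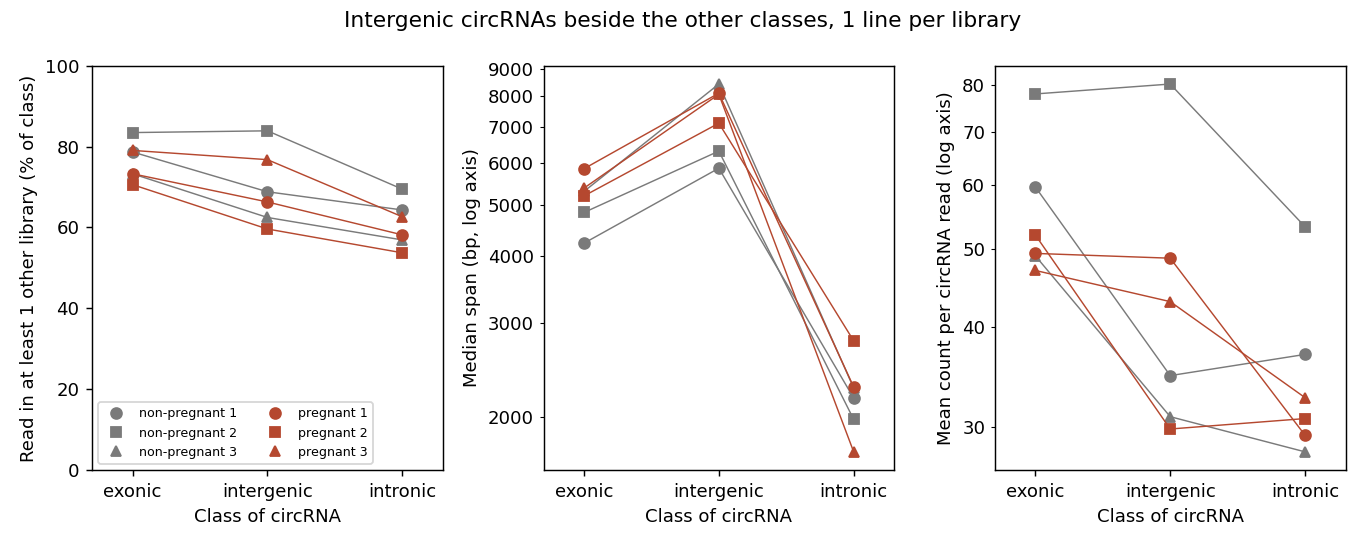
For each library (1 line, grey for non-pregnant and red for pregnant cows), the percent of circRNAs read in at least 1 other library (left), the median span (middle, log axis) and the mean count per circRNA read (right, log axis) of exonic, intergenic and intronic circRNAs. The median span of intergenic circRNAs was the highest of the 3 classes in every library, from 5859 to 8432 bp.

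Pregnancy was compared first by the share of all circRNA reads that was intergenic. It was 2.24%, 2.83% and 2.60% in non-pregnant cows and 3.52%, 2.58% and 3.06% in pregnant cows. The means were 2.56% ± 0.30 (SD, n = 3) and 3.05% ± 0.47 (SD, n = 3), and the groups overlapped. The difference was 0.49 points (exact permutation test, two-sided p = 0.3, where 3 against 3 allows 0.1 at the least). Without the locus of circRNA14874 the shares were 2.38% ± 0.25 and 2.34% ± 0.05 (SD, n = 3; exact p = 0.8), and without the 10 most read members 1.90% and 1.86%.

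Next, each circRNA was compared between the groups. Of the 2353 members 301 had enough reads to be tested, 12.8% of them but 75.04% of their reads, among 8261 circRNAs tested. With an adjusted p under 0.05 and a fold of at least 2, edgeR called 0 of the 301, and 0% of all tested circRNAs. The lowest adjusted p of a member was 0.983. DESeq2 called 12 members, 2.51% of the 479 members to which it gave an adjusted p, beside 1.35% of all such circRNAs. All 12 were lower in pregnant cows, and each of these 12 had reads in non-pregnant replicate 2 only.

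At an unadjusted p under 0.05 with the same fold, 9 members were higher and 4 were lower in pregnant cows. Higher calls were 2.99% of the members tested beside 1.43% of all circRNAs tested, and lower calls were 1.33% beside 2.46%. Groups that did not overlap were found for 25 members with higher levels in pregnancy (8.31%) beside 8.16% of all tested, and for 8 with lower levels (2.66%) beside 3.87%. The median log2 fold change was 0.00 for the members and 0.05 for all circRNAs tested.

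Of the 9 higher members, 8 had 0 reads in every non-pregnant cow, and they entered the test only through the pregnant libraries. circRNA38102, which shares its end with circRNAs of GDE1, a glycerophosphodiesterase gene, had 28, 18 and 16 reads in pregnant cows. This was 16.4-fold the level of 3 reads pooled over the non-pregnant group. Such a fold is no lower bound, because members were counted from 2 reads up and a 0 may hide an unreported read. It also takes the pregnant counts without error. circRNA38039 ends with GUCY1B1, the beta subunit of the nitric oxide receptor guanylate cyclase, and had 33, 13 and 14 reads (15.8-fold on that scale). circRNA37881 ends with LOC112585205 and had 28, 15 and 13 reads (14.8-fold). That value does not stand for the junction, since the exonic partner circRNA12280, with a start 1 bp later, had 13, 0 and 10 reads in the non-pregnant cows, and with the pair merged the log2 fold change was 1.21 (unadjusted p of 0.379).

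The other members of this kind were at 10.8-fold to 13.98-fold on the same scale. circRNA37825 overlaps LOC102410316, annotated as the ubiquitin ligase RNF213, and had 14, 17 and 22 reads. circRNA37852 starts with LOC102391695, a C-type lectin gene, and had 23, 16 and 14 reads. circRNA37882 lies between SSH3 and RAD9A and had 16, 17 and 18 reads, and circRNA37839 lies in the cluster between ENTPD4 and SLC25A37 and had 15, 14 and 12 reads. The eighth was circRNA38027, the circle at LOC102402027 that shares an end with circRNA14874.

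The levels of these 8 were low. Each had 41 to 62 reads in all, where the folds set the pooled non-pregnant group at 3 reads. Over all entries, 20 members (0.85%) were read in all 3 pregnant and no non-pregnant cow, beside 0.767% of exonic and 0.623% of intronic circRNAs, and 0 members were read in all 3 non-pregnant and no pregnant cow, beside 0.217% and 0.267%. Non-pregnant replicate 2, in which few circRNAs were read, weighs on that comparison: 29 members (1.23%) were read in non-pregnant replicates 1 and 3 and in no pregnant cow, beside 1.38% of exonic and 1.13% of intronic circRNAs. The ninth higher member was circRNA14478 of the class I locus, whose groups overlapped and of which pregnant replicate 3 held 1053 of the reads.

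The 4 lower members were circRNA14696, circRNA14457, circRNA15040 and circRNA14689. circRNA14696, which starts with ARHGAP26, a GTPase-activating protein gene, had 37, 85 and 46 reads in non-pregnant and 15, 7 and 0 in pregnant cows (log2 fold change -3.89 ± 1.44, SE). circRNA14457 lies within LPP, which codes for a protein of focal adhesions, and had 69, 14 and 76 against 17, 14 and 5 (-2.39 ± 0.89). circRNA15040, between TRPC5 and DCX on NC_037569.1, had 20, 103 and 13 against 10, 7 and 0 (-4.27 ± 1.65). The groups of these 3 did not overlap in TMM-scaled CPM, whereas circRNA14689, with 69, 117 and 33 against 8, 48 and 10 reads, overlapped. For circRNA14457 the separation depended on the scaling of non-pregnant replicate 2. Relative to unscaled library totals, its 14 reads there lay below the 17 of pregnant replicate 1.

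For 3 of the 4, non-pregnant replicate 2 was the highest library. Without it the unadjusted p was 0.132 for circRNA14696, 0.402 for circRNA15040 and 0.21 for circRNA14689. For circRNA14457 it was 0.0133 without that library, but 0.0532 to 0.102 without non-pregnant replicate 1 or 3 or pregnant replicate 2 or 3, and 0.139 by DESeq2. The adjusted p of all 13 was 0.983 by edgeR's quasi-likelihood test with Benjamini-Hochberg adjustment. Further members with separate groups in TMM-scaled CPM were circRNA14811 at LOC102405871 (100, 136 and 64 against 35, 35 and 40 reads, unadjusted p of 0.0517), circRNA14819 (61, 7 and 17 against 0, 0 and 9, unadjusted p of 0.0899) and circRNA14737 (76, 72 and 106 against 3, 57 and 0, unadjusted p of 0.0957). Relative to unscaled library totals the groups of circRNA14819 overlapped. Without non-pregnant replicate 2 the unadjusted p by edgeR was 0.105, 0.115 and 0.178 for circRNA14811, circRNA14819 and circRNA14737.

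**Figure D5:**
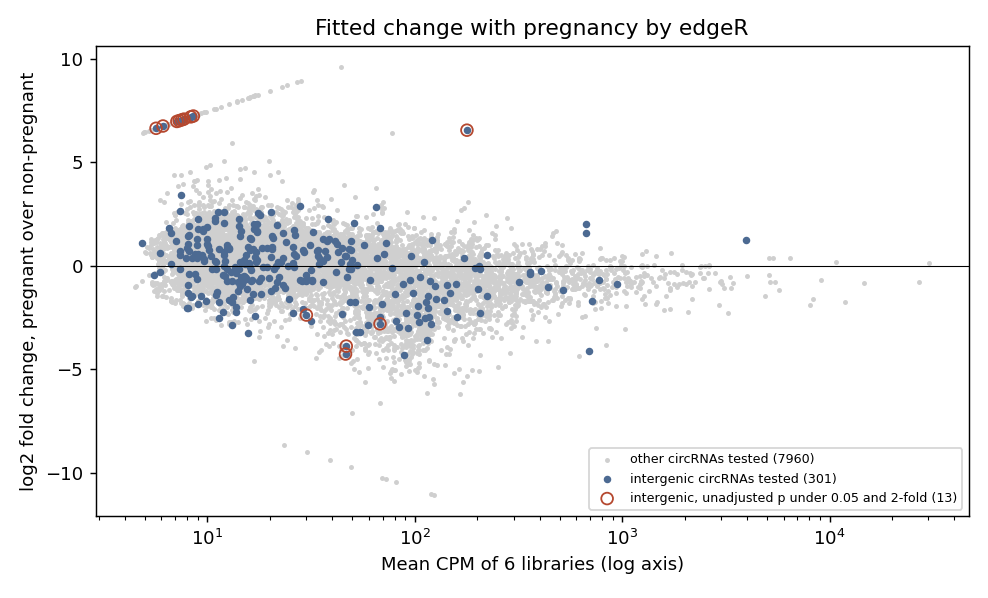
Fitted log2 fold change, pregnant over non-pregnant, against the mean CPM of the 6 libraries (log axis) for 301 intergenic circRNAs (blue) and the other circRNAs tested (grey), with red rings on the 13 at an unadjusted p under 0.05 and 2-fold. Of the 9 rings above 0, the 8 on the upper left line are members with 0 reads in every non-pregnant cow, whose fitted value depends on the prior count of the fit and is no bound.

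Summing the members of a locus, as the circRNAs of a host gene are summed, left 255 intergenic loci among 4392 loci and host genes tested. None passed the adjusted threshold by edgeR, with a lowest adjusted p of 0.885, and 14 passed at an unadjusted p under 0.05 with a 2-fold change. DESeq2 called 4 loci after adjustment, 0.372% of those to which it gave an adjusted p, beside 0.118% of all such units. Of the 14, 9 were higher in pregnancy (3.53% of the loci tested), beside 1.07% of all units tested, and 5 were lower (1.96%), beside 4.05%. A total of 6 of the 9 and 1 of the 5 had 0 reads in every cow of the other group and entered the test only through the group in which they were read. The locus of circRNA14874 was among the higher ones, with a log2 fold change of 1.60 ± 0.58 (SE), an unadjusted p of 0.0141 and an adjusted p of 0.934. Without pregnant replicate 1 it was 0.92 (unadjusted p of 0.125), without non-pregnant replicate 3 it was 1.40 (unadjusted p of 0.0534), and with RLE size factors it was 1.24 (unadjusted p of 0.133).

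Among these 7 loci were 3 of 4 to 6 members. At 5 members with ends in multidrug resistance-associated protein 4-like genes, including circRNA14792, the sums were 39, 10 and 79 reads in non-pregnant and 0, 0 and 0 in pregnant cows. With the pregnant group set at 3 pooled reads this was 49.9-fold lower, which is no lower bound. At 6 members in PICALM, a clathrin adaptor gene of endocytosis, the sums were 0, 0 and 0 against 11, 122 and 32 reads (47.0-fold higher on the same scale). The 4 members at GDE1, led by circRNA38102, summed to 0, 0 and 0 against 50, 40 and 16 reads. A locus of 5 members at EXOC4, an exocyst subunit gene, had 73, 319 and 144 against 54, 68 and 62 reads. Its groups were separate in TMM-scaled CPM and overlapped relative to unscaled library totals. The log2 fold change of this locus was -2.05 ± 0.82 (SE), and -0.75 (unadjusted p of 0.157) without non-pregnant replicate 2.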

How the data were processed

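The authors depleted ribosomal RNA from total blood RNA, treated it with RNase R, prepared strand-marked cDNA and sequenced it paired-end. According to the methods, reads trimmed by Cutadapt were mapped to ASM312139v1 by Bowtie2 and TopHat2, and circRNAs were called by CIRCexplorer and CIRI. Another list, in the submitters' processing notes, holds HISAT2, StringTie and the human build GRCh38.p10. The sources used here do not say which of these produced the table, whose sequence names are those of the buffalo assembly. The authors deposited junction read counts per circRNA and library, with no normalization, and an SRPBM signal, which in every library was a constant multiple of the count and was not tested. All 12 columns of values belonged to the 6 samples.

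Counts of all 57308 circRNAs were fitted with edgeR 4.0.16 in R 4.3.3 (TMM, filterByExpr, quasi-likelihood test, Benjamini-Hochberg adjustment over all tested) and with DESeq2 1.42.0 as an alternative. The study's own thresholds, 0.05 for the adjusted p and 1 for the log2 fold change in either direction, were used, with its t-test replaced by a count test. CPM uses the TMM-scaled library total, with factors computed separately for circRNAs and for loci with host genes. A fold against a group at 0 was computed against 3 reads pooled over that group and is no lower bound. Loci are sets of intergenic circRNAs with overlapping spans on 1 strand. Classes were compared within libraries by exact paired permutation tests and groups by exact permutation tests, two-sided (Python 3.11.15, scipy 1.17.1). The 7 main tests were adjusted together, and exact p-values of other settings are unadjusted. Replicates are separate cows, and depth was 815851 to 1298753 reads per library.

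The circRNAs and loci named are the 10 with the highest mean CPM, the 5 highest read in all 6 libraries, up to 6 per direction with the smallest p and separate groups, up to 5 with 100 reads or more in a single library, the 5 loci with most members (6 with a tie) and the 5 with most reads, up to 5 that share an end with an exonic circRNA, up to 4 pairs within 1 bp, and the longest and shortest with 50 reads or more. Other names were chosen after their values were seen. The members, lists and rules were chosen with earlier results of these data known. RefSeq of NDDB_SH_1, which held 7978 of the 8611 host gene symbols, gave gene types and order only. No genome of the files' build was used here, so junction sequences and splice sites are not analysed here.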

Additional observations from a re-analysis of the deposited data

How the results depend on the processing

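No intergenic circRNA or locus passed the adjusted threshold with edgeR and the low-count filter, under TMM, RLE size factors, the replicate block or leaving out any library, and no circRNA did with junctions merged within 1 bp, which was run for circRNAs only. Without the filter 50 circRNAs (2.12%, beside 1.05% of all circRNAs) and 34 loci (2.65%, beside 1.13% of all loci and host genes) passed, and with DESeq2 12 (2.51%, beside 1.35%) and 4 (0.372%, beside 0.118%). Of the 50, 31 were read in non-pregnant replicate 2 only. At an unadjusted p under 0.05 and 2-fold, the count of circRNAs was 13 (4.32%, beside 3.89% of all tested). It was 146 without the filter (6.20%, beside 3.70%), 72 with DESeq2 (3.14%, beside 1.60%) and 4 with the replicate block (1.33%, beside 1.79%). When a library was left out it was 32 to 43 (6.32% to 10.9%, beside 3.72% to 9.14%), and more circRNAs passed the filter. Without non-pregnant replicate 3 the share was 8.96% beside 9.14%, and in every other such fit the share of members was the higher. For loci the count was 14 (5.49%, beside 5.12%), against 23 with RLE size factors (9.02%, beside 6.49%), 130 without the filter (10.1%, beside 6.18%) and 76 with DESeq2 (6.12%, beside 4.02%). With a library left out it was 23 to 53 (7.01% to 16.4%, beside 2.98% to 10.7%). Deviations of same-numbered libraries of the 2 groups correlated at -0.0978, -0.0554 and -0.0392, and those of differently numbered ones at -0.0664 to 0.132. Such low correlations show no pairing by replicate number but cannot exclude one.

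The ADAM32 locus sum, fitted at -0.06 on the log2 scale, was 0.46 with the replicate block and -0.48 to 1.36 when a library was left out, with the highest value without non-pregnant replicate 2. Its main member circRNA14427 (-0.69) was 0.18 with the replicate block and -1.19 to 1.28 with a library left out, again highest without that library. The difference in recurrence from exonic circRNAs (-6.73 points) was -11.3 at counts of 5 or more, -12.5 at counts of 2 to 4 and -10.2 with junctions merged within 1 bp. That from intronic ones (8.77) was 2.06 at counts of 5 or more and 8.59 at counts of 2 to 4. The mean count against exonic circRNAs (-0.39 on the log2 scale) was 0.34 by the median and -0.74 without the 10 most read of either class, and that against intronic ones (0.29) was 0.41 by the median. These counts compare classes whose lowest counts are unlike. Without the 10 most read members the difference in count share between pregnant and non-pregnant cows was -0.0431 points, and without the most read locus, an alternative chosen after seeing the data, -0.0345. Leaving out a library gave 7.64 to 9.62 points for recurrence against intronic circRNAs and 0.47 to 0.53 and 1.64 to 1.81 (log2) for span against exonic and intronic ones, but 5 libraries allow no exact p below 0.0625.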
